A study of Homo sapiens with 9 samples.

Results

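The CCN genes encode a family of secreted matricellular proteins with 6 members in human, CCN1 to CCN6. They were formerly known as CYR61, CTGF, NOV and the WISP genes. Their rows were found by Ensembl identifier among the 58735 genes counted by RNAseq in an established clear cell renal cell carcinoma line. The study asked what loss of HIF2α function changes in these cells, which lack functional VHL and HIF1α and carry constitutively active HIF2α. The control group was WT cells without treatment. The PT2385 group was WT cells given 10 μM PT2385, a small molecule that blocks the pairing of HIF2α with its partner ARNT, for 48 h. The KO group was cells of the hif2a KO genotype without treatment. All 3 groups were grown at 21% O2 for 48 h in DMEM with glucose and serum, and each had 3 replicates. The vehicle of the control cells, the way the KO line was made and whether it is a single clone are not given in the sources used here. Nothing in the labels says that replicates were separate cultures, so p-values measure only the spread between these samples, which may be technical. Libraries held 11881000 to 14730081 counts. The family was chosen with its gene values in these same comparisons already known, among them the high CCN3 in KO. The levels of its members are therefore given as a description, and no p is read for a member between the groups.

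CCN proteins are built from modules that resemble parts of IGF-binding proteins, von Willebrand factor and thrombospondin, and most end in a cystine knot domain, which CCN5 lacks. They sit in the extracellular matrix, bind integrins, heparan sulfate proteoglycans and LRP receptors, and alter adhesion, migration and matrix production. CCN1 and CCN2 are classic targets of YAP and TAZ, the coactivators held back by the Hippo kinases, and CCN2 is also induced by TGF-beta in kidney fibrosis.

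The promoter of CCN2 is shown because CCN2 differed most in level among the members that were expressed in all 3 groups, and because its promoter is a textbook binding place of TEAD factors, the DNA-binding partners of YAP and TAZ. RefSeq promoter entries on GRCh38.p14 were held for 2 of the 6 members, CCN2 and CCN6. The 250 bases upstream of the start of CCN2, at chr6:131951373-131951622 on the minus strand, read as follows, with capitals marking GGAATG, the core of the TEAD motif.
CCN2 promoter: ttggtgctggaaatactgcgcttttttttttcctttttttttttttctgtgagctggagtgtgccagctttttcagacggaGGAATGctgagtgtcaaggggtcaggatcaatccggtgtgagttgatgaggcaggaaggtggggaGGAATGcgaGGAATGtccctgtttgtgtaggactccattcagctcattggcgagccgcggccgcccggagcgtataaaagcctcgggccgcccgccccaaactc
Both strands were searched. GGAATG, or CATTCC on the opposite strand, was found 3 times, with first bases at −169, −104 and −95 from the start. Of 35116 promoters of this length, 11.9% held the motif at least once and 29 (0.0826%) held it 3 times or more. The core forms of the HIF motif, ACGTG and GCGTG, had 0 matches in the window and were held by 18.5% and 32.2% of promoters. CAGAC, a SMAD motif held by 38% of promoters, had 1 match, at −177. The window of CCN6 held GGAATG 1 time, at −128, and ACGTG 2 times, at −214 and −122. It held GCGTG and CAGAC 0 times. A match is a description of letters and not a sign of binding.

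EPAS1, which encodes HIF2α, was read first as a check of the labels. Its counts were 3226, 3210 and 2788 in control, 3075, 3317 and 3132 with PT2385, and 262, 360 and 307 in KO. The KO libraries all lay under the other libraries. EPAS1 in KO against control fell by 3.52 on the log2 scale (SE 0.0963, adjusted p = 2.15e-09 in edgeR), while its difference with PT2385 was −0.11 (SE 0.0746, adjusted p = 0.459). The 5 HIF response genes, chosen with earlier results of these data known, fell in both comparisons with control, 5 of 5 in each. Of all tested genes, 4.62% fell with PT2385 and 15.4% fell in KO against control. The count of 5 is therefore no independent check of the labels. VEGFA, the angiogenic growth factor, had log2 differences of −2.12 with PT2385 and −2.12 in KO. SLC2A1, a glucose transporter, had −2.31 and −1.80, and EGLN3, a HIF prolyl hydroxylase, had −3.14 and −5.74. ADM, the vasodilator peptide adrenomedullin, had −2.81 and −3.11. CCND1, which encodes cyclin D1 and overlaps LTO1, had −1.87 and −2.03.

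The cell type label was read against markers. All 8 renal tubule and carcinoma line markers were detected, with summed levels of 6063 to 6801 CPM (counts per 1000000 counts of the library, scaled for composition) and the intermediate filament gene VIM most abundant at 52161 to 66723 counts. VIM held most of these counts, so the sum says little of the others. PAX2 had 394, 377 and 461 reads in control and 146, 230 and 201 in KO. KRT18 had 1722, 1950 and 2142 in control and 3447, 3949 and 4734 in KO, so this list did not move 1 way. Of 4 endothelial markers 2 had any count, with at most 2 reads in a library, and PECAM1 and VWF were at 0. Of 4 leukocyte markers 2 had any count, CD14 with 0 to 18 reads and PTPRC with at most 1, and CD3E and MS4A1 were at 0. Of 4 fibroblast markers 3 had counts, and COL1A2 was at 0. COL1A1 had the most reads in total, with 24 to 104 in a library, but LUM exceeded it in KO replicates 1 and 2. LUM had 15, 15 and 22 reads in control and 43, 60 and 31 in KO, while PDGFRB had 27, 31 and 28 in control and 2, 2 and 0 in KO, so these markers did not move the same way. Their summed level was 9.30, 10.1 and 8.78 CPM in control, 11.1, 13.3 and 10.5 with PT2385, and 5.33, 6.999 and 5.22 in KO. The sum was low and lowest in KO, and the part of these markers in the values below was not tested.

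Replicate 3 of KO stood apart from the other libraries of its group. The SD of a library's log2 deviations from its group mean ran from 0.0825 to 0.159 over the 9 libraries and was highest in this library. Replicate 3 also had the highest SD within control (0.111) and within PT2385 (0.146). Chi-square per degree of freedom between replicate counts was 3.70 to 24.4 over the 9 pairs within groups, with the highest value between KO replicates 2 and 3, and no pair agreed within sampling noise. CCN1, CCN2 and ANKRD1, a further YAP target, were each highest in KO replicate 3 among the KO libraries. CCN1, CCN2 and ANKRD1 are therefore given with and without it, as are the list counts that moved by over 1.5 times or changed their balance when it was left out.

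CCN1 (ENSG00000142871, chromosome 1, 85580761 to 85584589 of GRCh38), an immediate early matrix protein that promotes adhesion and angiogenesis, was counted 4150, 5348 and 4179 times in control, 3635, 5104 and 4218 times with PT2385, and 4384, 4531 and 6152 times in KO. At normalised level this gave 348, 440 and 349 CPM in control, 293, 381 and 295 with PT2385, and 338, 314 and 423 in KO. Replicate 2 was high in control and with PT2385, replicate 3 was high in KO, and all 3 groups overlapped. The group means were 379 ± 52.9 CPM in control, 323 ± 50.5 with PT2385 and 358 ± 57.0 in KO (SD, n = 3). The log2 difference was −0.23 (SE 0.111) for PT2385 against control, −0.07 (SE 0.116) for KO against control and 0.15 (SE 0.125) for KO against PT2385. These SEs take no account of the replicate number. With the replicate number as a block, PT2385 against control gave −0.236 (SE 0.0414), so the overlap of these 2 groups partly reflects spread shared by same-numbered libraries. With 1 library left out the difference of PT2385 from control ran from −0.37 to −0.11, and that of KO from control changed sign, with 0.046 without control replicate 2, 0.019 without KO replicate 2 and −0.20 without KO replicate 3. That of KO from PT2385 ran from 0.013 without KO replicate 3 to 0.29 without PT2385 replicate 2. In bulk RNA, fewer expressing cells and less RNA per cell cannot be told apart.

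CCN2 (ENSG00000118523, chromosome 6, 131948176 to 131951372), connective tissue growth factor, was counted 116, 181 and 154 times in control, 279, 356 and 370 times with PT2385, and 347, 344 and 672 times in KO. These correspond to 9.72, 14.9 and 12.9 CPM in control, 22.5, 26.6 and 25.8 with PT2385, and 26.8, 23.8 and 46.2 in KO. Every PT2385 and KO library lay above every control library. The KO and PT2385 libraries overlapped, and KO replicate 3 stood well above the other libraries. The means were 12.5 ± 2.61, 25.0 ± 2.18 and 32.3 ± 12.1 CPM (SD, n = 3) in control, PT2385 and KO. CCN2 was 1.99-fold higher with PT2385 than in control (log2 0.996, SE 0.140) and 2.61-fold higher in KO than in control (log2 1.38, SE 0.238). With the replicate number as a block, the SE of CCN2 for PT2385 against control was 0.0986. Between KO and PT2385 the log2 difference was 0.37 (SE 0.210). Leaving out KO replicate 3 gave 1.03 (SE 0.147) for KO against control and 0.015 (SE 0.114) for KO against PT2385, so the higher mean of KO than of PT2385 rested on that library. CCN2 shares 278 exonic bases with LINC01013, which had 3 counts in all 9 libraries together.

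CCN3 (ENSG00000136999, chromosome 8, 119416446 to 119424434), a member that often opposes CCN2 in fibrosis models, was counted 2, 1 and 0 times in control, 1, 4 and 8 times with PT2385, and 202, 213 and 206 times in KO. The KO libraries held nearly all reads of the gene and were close to each other, with a mean of 14.8 ± 0.723 CPM (SD, n = 3). Control and PT2385 overlapped near the floor of detection, taken as 3 counts per library. The ratio of summed counts, scaled to TMM-adjusted library sizes, was 178 for KO against control, with a 95% counting interval of 60.6 to 865 from 621 and 3 counts. It was 45.7 for KO against PT2385 (26.5 to 86.3, from 621 and 13 counts). For PT2385 against control it was 3.90 (1.07 to 21.3, from 13 and 3 counts). These ratios move with single reads of the low groups. The ratio of KO to control was 357 without control replicate 1 and 119 without control replicate 3, and that of KO to PT2385 was 76.3 without PT2385 replicate 3 and 34.2 without PT2385 replicate 1. The ratio of PT2385 to control was 7.82 without control replicate 1, 2.60 without control replicate 3 and 2.33 without PT2385 replicate 3. Floors and intervals cover counting error only.

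The remaining members were at or under the floor in every library, which corresponds to 0.206 to 0.251 CPM. CCN4 (ENSG00000104415, chromosome 8, 133191039 to 133231690), a WNT-induced member, had 1 read, in KO replicate 3. CCN5 (ENSG00000064205, chromosome 20, 44714844 to 44728509) had 3 reads, also in KO replicate 3, and overlaps KCNK15-AS1. CCN6 (ENSG00000112761, chromosome 6, 112054075 to 112069686), which is mutated in a heritable cartilage disorder, had 0 reads. No fold is given for these genes. CCN6 and CCN2 share chromosome 6 at a distance of 19.9 Mb, and CCN3 and CCN4 share chromosome 8 at a distance of 13.8 Mb.

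**Figure D1:**
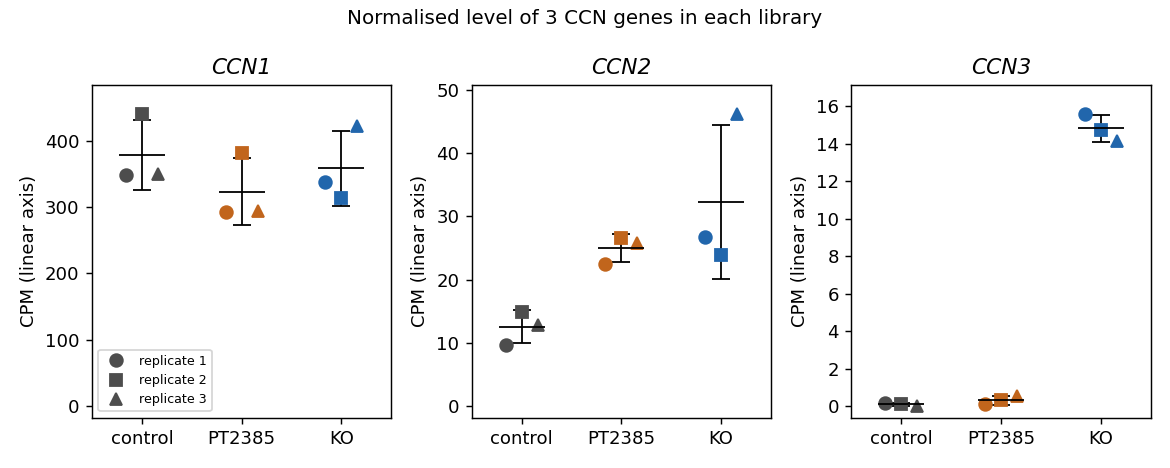
Normalised level in CPM (linear axis, 1 panel per gene) of CCN1, CCN2 and CCN3 in each library by group. Coloured points are the 3 replicates, horizontal lines the group means and bars the SD; CCN1 overlaps between groups, CCN2 control libraries lie below all others, and CCN3 is near 0 outside KO.

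The filter on low counts left 2 members (CCN1 and CCN2) in the comparison of PT2385 with control, and 3 members (CCN1, CCN2 and CCN3) in those of KO with control and of KO with PT2385. CCN3 passed because of its level in KO, so that it had to differ there. The groups did not overlap for 1 of 2 members with PT2385 against control, where 26.1% of all tested genes did not overlap. They did not overlap for 2 of 3 members in KO against control, beside 43.8% of all tested genes, and for 1 of 3 in KO against PT2385, beside 35.4%. Nothing is read from these counts, since the members were chosen from these contrasts.

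The labels number the replicates 1 to 3 in every group, and differences were also taken within each number. For CCN1 the log2 ratio of PT2385 to control was −0.25, −0.21 and −0.25 in replicates 1, 2 and 3, so the 3 pairs were closer to each other than the libraries of a group. For CCN1 in KO against control the values were −0.04, −0.49 and 0.27, with both signs. CCN2 was higher with PT2385 than in control in each pair, by 1.21, 0.84 and 1.01, and higher in KO than in control, by 1.46, 0.68 and 1.84. Between KO and PT2385, CCN2 gave 0.25, −0.16 and 0.84 and CCN1 gave 0.21, −0.28 and 0.52. For both genes replicate 2 gave the lowest value and replicate 3 the highest there. In CPM, KO replicate 2 was also the lowest and KO replicate 3 the highest KO library for both genes. The numbers were not taken to pair the KO libraries with the other groups, so no paired difference is read for KO. The comparisons of PT2385 and KO with control share their control libraries.

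**Figure D2:**
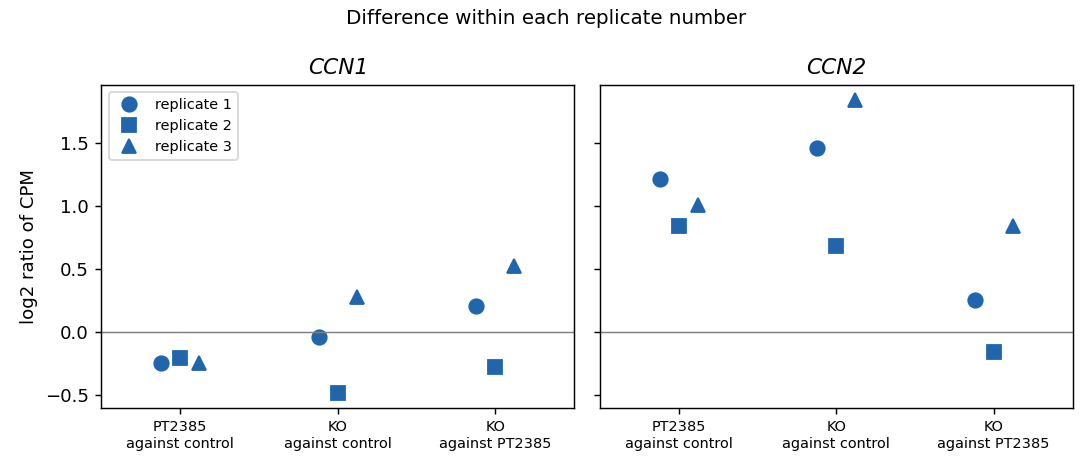
Log2 ratio of CPM of CCN1 and CCN2 within each replicate number for the 3 comparisons, 1 point per number, with the grey line at 0. The numbers were not taken to pair the KO libraries with the other groups. All 3 CCN2 points lie above 0 for PT2385 against control and for KO against control, while the CCN1 points of KO lie on both sides of 0.

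Levels of different genes were compared as CPM per kilobase of annotated exon. CCN1 was the most abundant member in each group, at 102 ± 14.3 in control, 96.9 ± 15.4 in KO and 87.4 ± 13.6 CPM per kb with PT2385 (SD, n = 3). CCN2 followed, at 13.8 ± 5.19 in KO and 10.7 ± 0.932 with PT2385. Next came CCN3 in KO at 5.67 ± 0.277 and CCN2 in control at 5.34 ± 1.12, and these libraries overlapped. CCN3 was at 0.120 ± 0.0915 with PT2385 and 0.0319 ± 0.0321 in control. In this order the 3 CCN1 levels overlapped among themselves, as did the pair of CCN2 levels in KO and PT2385, the pair of CCN3 in KO and CCN2 in control, and the pair of low CCN3 levels. Libraries did not overlap between these sets. CCN1 made up 95.03%, 88.9% and 83.4% of the summed level per kb of the family in control, PT2385 and KO. CCN2 as a percentage of CCN1 was 4.42, 5.35 and 5.83 in control, 12.1, 11.03 and 13.9 with PT2385, and 12.5, 12.01 and 17.3 in KO. The control libraries lay below all others on this measure, and the last 2 groups overlapped. CCN3 made up 4.99 ± 0.96% of the family in KO.

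**Figure D3:**
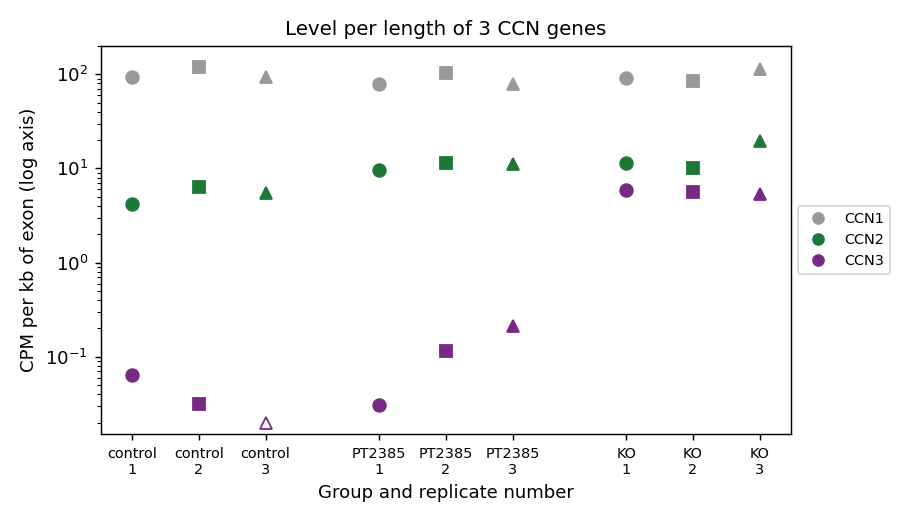
Level of CCN1, CCN2 and CCN3 in CPM per kb of exon (log axis) in each of the 9 libraries, with marker shape giving the replicate number. The open symbol at the bottom is a library with 0 reads of CCN3, drawn at the edge of the axis; CCN3 in KO lies near CCN2 in control.

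Genes of the pathways that control CCN1 and CCN2, other targets of those pathways and binding partners of CCN proteins were described from lists, each with the count of genes that passed the edgeR test (adjusted p under 0.05). Of all tested genes, 3.08% rose and 4.62% fell with PT2385 against control, 14.7% rose and 15.4% fell in KO against control, and 8.47% rose and 10.3% fell in KO against PT2385. The number called with PT2385 against control was 1162 of 15089. It was 654, 581 and 728 without control replicates 1, 2 and 3, 574 without PT2385 replicate 2, and 2305 with the replicate number as a block. In KO against control 4566 of 15192 were called, and in KO against PT2385 2897 of 15402, or 1836 without PT2385 replicate 2. The median log2 difference of all tested genes was 0.001, 0.0038 and −0.0035 in these comparisons. Lists were read beside these values, and nothing particular to a list is claimed from them.

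Of 19 genes of the Hippo core, 18 were tested and TEAD2 had 0 counts. With PT2385, 3 rose and 0 fell (median log2 −0.055). These were VGLL4, a competitor of YAP for TEAD (0.32), TEAD3 (0.49) and NF2, the tumor suppressor merlin (0.25). None of these 3 calls was kept with each library left out in turn, since all were lost without control replicate 2 or without PT2385 replicate 2 (VGLL4 0.30 and 0.31, TEAD3 0.49 and 0.44, NF2 0.24 and 0.25). TEAD3 was also lost without control replicate 1 (0.485), control replicate 3 (0.50) and PT2385 replicate 1 (0.50), and NF2 without control replicate 1 (0.22) and PT2385 replicate 3 (0.20). The call of TEAD3 was also lost in DESeq2 (0.491) and that of NF2 with all 9 libraries in 1 model (0.258). With the replicate number as a block all 3 were called in edgeR (adjusted p = 0.00286 for VGLL4, 0.0189 for TEAD3 and 3.31e-04 for NF2). The block also called 2 genes that fell, WWC1 (−0.27 without the block, adjusted p = 0.00126 with it) and AMOT (−0.22 and 0.0494), which are named here after their values were seen. The number that fell was 1 without PT2385 replicate 3, in DESeq2 and with no filter on low counts. In KO against control, 3 rose and 3 fell (median −0.055). AMOTL1, an angiomotin-like scaffold that binds YAP, was counted 642, 529 and 534 times in control, 616, 676 and 758 times with PT2385, and 78, 70 and 73 times in KO. It was low in every KO library and fell by 3.15 (SE 0.129, adjusted p = 2.50e-08). TEAD3, a DNA-binding partner of YAP, rose by 0.997 (SE 0.135, adjusted p = 2.40e-04), and VGLL4, which shares exonic bases with ATG7 on the other strand, rose by 0.37. The kinase LATS1 fell by 0.33. AMOTL1 also differed between KO and PT2385 (log2 −3.27, SE 0.111, adjusted p = 6.02e-08), where 1 gene of the list rose and 1 fell. The call of TEAD3, the gene that rose, was lost without any 1 of the libraries other than KO replicate 3, while its log2 difference of 0.49 stayed between 0.405 and 0.571 over the 6 left-out libraries. Without KO replicate 3 the number that fell was 2. YAP1 and WWTR1, which encode YAP and TAZ and were picked here after their values were seen, passed the test in neither comparison with control. YAP1 had log2 differences of −0.10 (SE 0.0662) with PT2385 and 0.13 (SE 0.0635) in KO, and WWTR1 had 0.12 (SE 0.0685) and −0.10 (SE 0.0785). Between KO and PT2385 both lay just outside the threshold in edgeR, YAP1 with 0.21 (SE 0.0680, adjusted p = 0.052) and WWTR1 with −0.24 (SE 0.0769, adjusted p = 0.0501). With the replicate number as a block both passed there (adjusted p = 0.0292 and 0.00632 in edgeR). The numbers were not taken to pair the KO libraries with the other groups, so neither gene is read as called.

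Of 20 YAP/TAZ targets other than CCN genes, 19 were tested and FOXF2 had 0 counts. With PT2385, 2 rose and 4 fell (median −0.027), and with the replicate number as a block 5 rose and 6 fell. In KO against control, 1 rose and 6 fell (median −0.063). The balance with PT2385 turned with the setting, since 4 rose and 3 fell with upper-quartile scaling, with library-size scaling and without PT2385 replicate 1. With all 9 libraries in 1 model 0 rose and 4 fell, and with no filter on low counts 4 rose and 5 fell. With PT2385, 3 rose and 3 fell without control replicate 3, 1 rose and 3 fell without control replicate 1, and 0 rose and 3 fell without control replicate 2 or PT2385 replicate 2. In KO the number that fell was 3 without control replicate 2, control replicate 3, KO replicate 1 or KO replicate 2, and 9 without KO replicate 3, and the 1 that rose was lost without control replicate 1 or 2. F3, tissue factor of the coagulation cascade, was counted 1512, 1755 and 1711 times in control, 202, 234 and 226 times with PT2385, and 127, 105 and 179 times in KO. Control libraries lay far above the others, and F3 fell by 3.07 with PT2385 (SE 0.0822, adjusted p = 6.84e-10) and fell by 3.80 in KO (SE 0.137, adjusted p = 8.30e-09). IGFBP3, which binds insulin-like growth factors, had log2 differences of −0.64 and −0.95 (adjusted p = 8.74e-04 and 6.24e-04 in edgeR). ASAP1, an Arf GTPase-activating protein, fell by 0.33 with PT2385 (adjusted p = 0.00131). TGFB2, a TGF-beta ligand, fell by 0.64 in KO (adjusted p = 6.75e-04) and had a log2 difference of 0.03 with PT2385. For TGFB2 the direct comparison of KO with PT2385 also passed (−0.69, adjusted p = 0.00133), in a list where 1 gene rose and 4 fell, or 0 rose and 2 fell without PT2385 replicate 2 and 1 rose and 6 fell without KO replicate 3.

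ANKRD1, a muscle and stress-responsive ankyrin repeat protein, is often read together with CCN1 and CCN2 as a set of YAP reporters. Its counts were 409, 397 and 413 in control, 523, 581 and 615 with PT2385, and 345, 339 and 694 in KO. The PT2385 libraries lay above control, while KO held its lowest and its highest library. ANKRD1 rose by 0.34 with PT2385 (SE 0.0728, adjusted p = 0.0141), a call that was lost without control replicate 2 (0.32), without PT2385 replicate 2 (0.33) and with all 9 libraries in 1 model (0.341). In KO against control the difference was −0.04 (SE 0.210, adjusted p = 0.921), and without KO replicate 3 it was −0.42 (SE 0.0956, adjusted p = 0.00372). In KO against PT2385 it was −0.39 (adjusted p = 0.237), and without KO replicate 3 it was −0.78 (adjusted p = 2.90e-04). It was −0.27 without KO replicate 1 and −0.20 without KO replicate 2, and with no filter on low counts the difference of −0.393 was called. Against control the sign turned with the KO library left out, with 0.09 without KO replicate 1 and 0.16 without KO replicate 2, so no direction is read for ANKRD1 in KO.

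**Figure D4:**
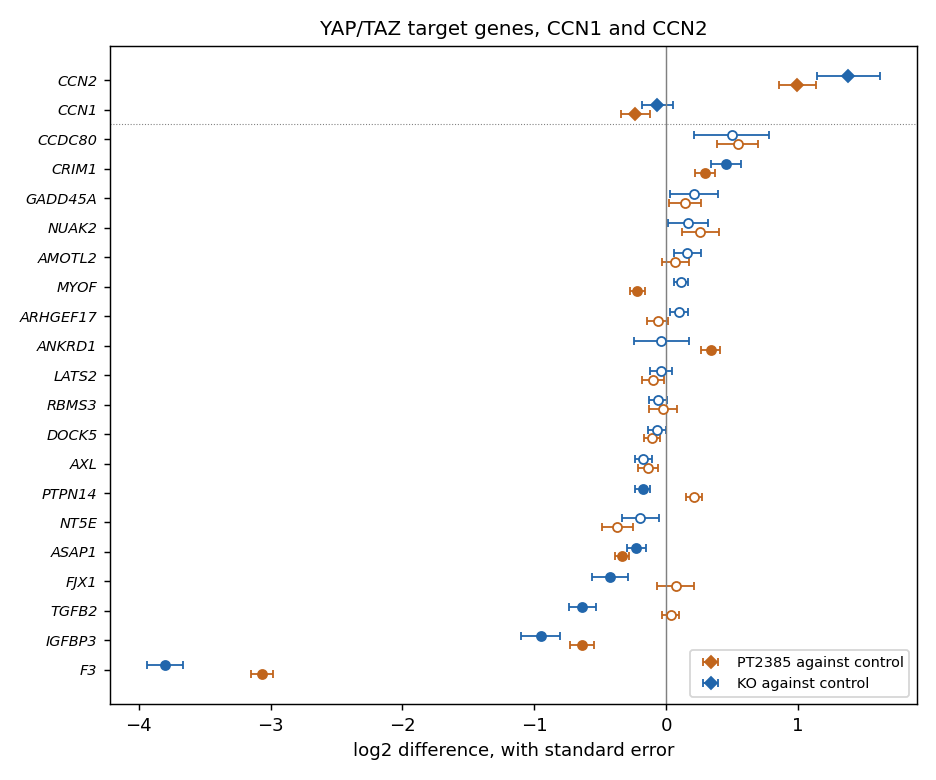
Log2 difference with its standard error for the 19 tested YAP/TAZ targets and, above the dotted line, CCN1 and CCN2, for PT2385 against control (orange) and KO against control (blue). Filled circles passed the edgeR test, open circles did not, and diamonds mark CCN genes, for which no test is read; F3 lies farthest to the left, at −3.07 and −3.80.

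Of 12 targets of SRF and its MRTF coactivators, which also drive CCN1 and CCN2, 10 were tested and ACTG2 and CNN1 had at most 3 reads in a library. With PT2385, 3 rose and 1 fell (median 0.12), in KO against control 2 rose and 2 fell (median −0.018), and in KO against PT2385 0 rose and 3 fell (median −0.20). The 1 that fell with PT2385 was lost without control replicate 2 or 3, and in KO against control 1 rose without any 1 control library, and 1 rose and 3 fell without KO replicate 3. FHL2, a LIM domain protein, rose by 0.49 with PT2385 (adjusted p = 2.44e-04) and by 0.35 in KO (adjusted p = 0.00120). MYL9, a myosin regulatory light chain, rose by 0.39 with PT2385 (adjusted p = 0.00117). FHL1, a further LIM domain protein, fell by 0.60 in KO. TPM1, an actin-binding tropomyosin, fell by 1.11 in KO (SE 0.0560, adjusted p = 1.10e-07) and was also lower in KO than with PT2385 (−1.05, adjusted p = 1.71e-06).

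Of 12 immediate early genes, the class to which CCN1 belongs, 8 were tested with PT2385 and 9 in both comparisons with KO. FOS, EGR2 and EGR3 had at most 7 reads in a library. With PT2385, 1 rose and 3 fell (median −0.19), in KO against control 2 rose and 3 fell (median −0.38), and in KO against PT2385 0 rose and 2 fell (median −0.052). With the replicate number as a block 2 rose and 5 fell with PT2385. The 1 that rose with PT2385 was EGR1, a transcription factor gene with 15, 4 and 9 reads in control and 52, 18 and 35 with PT2385. It passed the low-count filter through its level with PT2385, so its difference is not read as a call, and with at least 10 counts required in every library the number that rose was 0. It was also lost without any 1 control library or PT2385 replicate 1, and in KO against control 1 rose without control replicate 3. In KO against PT2385 the number that fell was 1 without PT2385 replicate 1, 0 without PT2385 replicate 2, KO replicate 1 or KO replicate 2, and 3 without KO replicate 3. DUSP1, a MAP kinase phosphatase, fell by 0.74 with PT2385 (adjusted p = 0.00199) and fell by 1.39 in KO (adjusted p = 2.58e-04). ZFP36, which promotes mRNA decay, fell by 1.01 with PT2385 (adjusted p = 0.00263). JUN, which encodes a subunit of AP-1, fell by 0.53 in KO (adjusted p = 0.00105). The AP-1 gene FOSB, which overlaps ERCC1, passed the low-count filter through its level in KO, so its difference is not read as a call, although it is counted among the 2 that rose. It had 7, 4 and 3 reads in control and 18, 18 and 15 in KO.

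All 13 TGF-beta ligands, receptors, SMADs and targets were tested. With PT2385, 1 rose and 4 fell (median −0.17), in KO against control 3 rose and 8 fell (median −0.28), and in KO against PT2385 2 rose and 1 fell (median −0.13). Without KO replicate 3 the last counts were 2 and 5. With PT2385 the number that fell was 1 without control replicate 1, control replicate 2 or PT2385 replicate 2, and 2 without control replicate 3, and the 1 that rose was lost without any 1 library other than PT2385 replicate 1. Without control replicate 3, 5 fell in KO against control. TGFBI, a TGF-beta induced matrix protein, fell by 1.43 in KO (adjusted p = 1.83e-07) and was lower in KO than with PT2385 (−1.12, adjusted p = 2.60e-06). TGFBR3, the coreceptor betaglycan, rose by 2.46 in KO (adjusted p = 1.70e-05) from 13, 14 and 26 reads to 105, 118 and 114, and was higher in KO than with PT2385 (2.57, adjusted p = 9.59e-06). SKIL, a repressor of SMAD signaling, fell by 0.33 in KO. With PT2385 TGFBI had a log2 difference of −0.32. The part of TGF-beta signaling in the level of CCN2 was not tested.

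Of 15 binding partners of CCN proteins, 13 were tested, and the proteoglycan genes DCN and BGN had 0 counts. With PT2385, 2 rose and 1 fell (median −0.011), in KO against control 3 rose and 4 fell (median −0.028), and in KO against PT2385 2 rose and 4 fell (median −0.13). With the replicate number as a block 4 rose and 1 fell with PT2385, and 2 fell without PT2385 replicate 3. Without control replicate 1 or 2, 2 fell in KO against control. In KO against PT2385 the number that fell was 0 without PT2385 replicate 2, 1 without KO replicate 1 or 2, and 2 without KO replicate 3, where 3 rose. FN1, the matrix protein fibronectin, was counted 54626, 56862 and 40322 times in control, 113303, 127003 and 97728 times with PT2385, and 357791, 373552 and 321720 times in KO. The 3 groups did not overlap. FN1 rose by 1.01 with PT2385 (SE 0.131, adjusted p = 4.07e-04) and by 2.59 in KO (SE 0.125, adjusted p = 7.97e-08), and KO was above PT2385 (1.57, SE 0.120, adjusted p = 9.91e-06). ITGB3, the integrin beta 3 chain, rose by 0.95 with PT2385 (adjusted p = 0.00101) and by 0.68 in KO (adjusted p = 0.00278). ITGB5, the beta 5 chain, fell by 0.45 with PT2385 (adjusted p = 0.00257). ITGA5, the alpha chain of a fibronectin receptor, fell by 0.39 in KO (adjusted p = 6.48e-04). LRP1, an endocytic receptor for CCN2, rose by 1.01 in KO (adjusted p = 3.16e-05) and was higher in KO than with PT2385 (0.77, adjusted p = 2.32e-04). LRP1 shares 59 exonic bases with STAT6 on the other strand.

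Over the 6 lists together, which hold 89 different genes, 12 rose and 13 fell of 79 tested with PT2385 (median −0.054), and 19 rose and 21 fell with the replicate number as a block. In KO against control 14 rose and 26 fell of 80 (median −0.070), and in KO against PT2385 6 rose and 15 fell of 80 (median −0.12). The counts with PT2385 depended on single libraries. Without control replicate 1, 6 rose and 8 fell, without control replicate 2, 4 rose and 7 fell, and without PT2385 replicate 2, 6 rose and 8 fell. In KO against PT2385 the number that fell was 8 without KO replicate 1 and 6 without PT2385 replicate 2. Of the 25 genes called with PT2385, 11 kept the call with each library left out in turn, and of the 40 called in KO against control, 25 did so. In KO against PT2385 it was 10 of 21.

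The genes whose level was most like that of a member were ranked by Pearson correlation of log2 CPM over the 9 libraries, among 10139 genes with a mean of at least 100 counts. For CCN1 these were PHACTR2 (r = 0.899), a regulator of phosphatase and actin, LRRC40 (0.889) and MFSD1 (0.861), a lysosomal transporter. For CCN2 they were EIF3G (0.984), a subunit of a translation initiation factor, GALNT2 (0.979), a glycosyltransferase, and TFIP11 (0.976), a splicing factor. The 9 libraries share 3 group levels, and these values are descriptions. Each r is among the highest of 10139 values over 9 libraries and is high partly by selection. PHACTR2 was nearly flat, with log2 differences of −0.047 with PT2385 and −0.015 in KO against control. The genes most like CCN2 spanned a smaller range than CCN2, as EIF3G had a log2 difference of 0.25 with PT2385 and 0.32 in KO. CCN3 had too few reads to be ranked.

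The replicate number is a contrast that was not used to choose the family, so it was tested for CCN1 and CCN2. In the model of group and replicate number over all 9 libraries, 409 of 15655 genes (2.61%) passed. Neither CCN1 (adjusted p = 0.464) nor CCN2 (adjusted p = 0.206) was among them in edgeR. For CCN3 no such test is read, since nearly all of its reads lay in the KO libraries, with 1 library per number. CCN2 was 0.50 (SE 0.169) higher in replicate 3 than in replicate 1 on the log2 scale and 0.19 (SE 0.174) higher in replicate 2. CCN1 was 0.22 (SE 0.110) higher in replicate 2 and 0.12 (SE 0.110) higher in replicate 3. These calls depended on the fit. With no filter on low counts 1552 genes passed, with adjusted p = 0.00787 for CCN1 and 4.74e-04 for CCN2. The main model includes the KO libraries, although their numbers were not taken to pair them with the other groups. Without the KO libraries CCN1 had an adjusted p of 0.00191 in edgeR. Of the 80 tested genes of the 6 lists, 8 differed by replicate number. Lower in replicate 3 than in replicate 1 were FN1 (log2 −0.39, adjusted p = 0.00333 in edgeR) and ITGB3 (−0.36, adjusted p = 0.00345). The others were higher in replicate 3, namely CCDC80 (0.86), FJX1 (0.46), NT5E (0.32), CRIM1 (0.31), NF2 (0.24) and SMAD3 (0.24). The count of genes that differed by replicate number was 33 without the control libraries and 12 without the PT2385 libraries.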

How the data were processed

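RNAseq was read from 9 libraries of the carcinoma line. The authors deposited raw counts per gene, for which FastQC was used on the reads, cutadapt for trimming, STAR for alignment to hg38 and featureCounts for counting. Versions, annotation release and strandedness are not given in the sources used here, so overlapping genes may share reads. All columns were mapped to samples by their labels. Symbols, positions and exon lengths came from GENCODE, and promoter sequences from RefSeq.

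Each pair of groups was compared in edgeR 4.0.16 (R 4.3.3) with TMM scaling, the quasi-likelihood F test and filterByExpr (minimum count 10). P-values were adjusted by Benjamini-Hochberg across every gene tested, and genes were called at adjusted p under 0.05. The steps were first tested on simulated data. CPM were counts per 1000000 after TMM. The 95% intervals of count ratios were exact binomial (Clopper-Pearson, scipy 1.17.1).

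The members and lists were chosen with earlier results of these data known. Named list genes were those called in a comparison with control, up to the 4 smallest p per list and comparison, of which mainly those kept with each library left out are described. The result of 1 list gene is not reported here. Same-numbered libraries of PT2385 and control deviated together over 10140 genes (correlations 0.453, 0.137 and 0.431), so the replicate number was taken to pair them, and the fit with the number as a block is given beside the counts it moved by over 1.5 times. Alternatives were DESeq2 1.42.0, other scalings, other filters, a stricter threshold, all libraries in 1 model, other exon lengths and each library left out.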

Additional observations from a re-analysis of the deposited data

How the results depend on the processing

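Changes of sign were counted for EPAS1 and the genes chosen by the naming rule. These were 39 genes in PT2385 against control and 40 in each comparison with KO. None of their values changed sign while called, which fits of mostly the same libraries could hardly give. Calls were lost in 48 of 545 values in PT2385 against control and gained in 5. They were lost in 27 of 558 in KO against control and gained in 10. In KO against PT2385 they were lost in 22 of 559 and gained in 15. Other genes named in the text were not in these counts. With the replicate block, 2305 genes differed between PT2385 and control (1162 without it), and of the 6 lists 19 rose and 21 fell. For KO the numbers were not taken to pair the libraries, since the correlations of replicate 2 were 0.056 with control and 0.0915 with PT2385, although in 15 of 18 comparisons of a library with another group, 2 for each of the 9 libraries, the best match was its own number. The replicate block gave 5501 genes for KO against control and 3783 against PT2385, with 23 list genes that fell in the latter. In KO against PT2385 it gave 2 that rose and 3 that fell in the Hippo core and 3 and 5 in the TGF-beta list, so that the balance of the latter also turned with this block, and adjusted p of 0.0292 for YAP1 and 0.00632 for WWTR1 in edgeR. At an adjusted p under 0.01, 516, 2788 and 1657 genes passed in PT2385 against control, KO against control and KO against PT2385, with 4 list genes that rose and 7 that fell, 9 and 16, and 6 that fell, by construction of the threshold. With 1 library left out, called genes ranged from 574 to 1451 for PT2385 against control and from 1836 to 3190 for KO against PT2385. List genes ranged from 4 to 11 that rose and 7 to 18 that fell with PT2385, and from 6 to 22 that fell in KO against PT2385. For the replicate number, no filter on low counts gave adjusted p of 0.00787 for CCN1 and 4.74e-04 for CCN2 and 1552 genes, the fit without KO libraries 0.00191 for CCN1, and fits without control or PT2385 libraries 33 and 12 genes. The cause was not tested. By the length of the longest transcript, CCN1 was at 123, 105 and 116 CPM per kb in control, PT2385 and KO, and CCN3 in KO at 6.02, as the shorter length requires.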

Other observations

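The neighbours of CCN3 and CCN4 were looked at after their values were seen, and their values are given with no test. Within 1 Mb of CCN3, 7 protein-coding genes had a mean of at least 10 counts. MAL2, a membrane protein of epithelial transcytosis at 170.8 kb from CCN3, was counted 306, 334 and 407 times in control, 449, 585 and 687 times with PT2385, and 1838, 2177 and 2515 times in KO. COL14A1, a fibril-associated collagen at 635.3 kb, was counted 75, 76 and 88 times in control, 299, 401 and 399 times with PT2385, and 1140, 1526 and 1269 times in KO. Both were highest in KO and intermediate with PT2385, with no overlap between the groups. TNFRSF11B, the decoy receptor osteoprotegerin, and DEPTOR, an inhibitor of mTOR, had log2 differences of 2.43 (SE 0.222) and 3.05 (SE 0.358) in KO against control. DEPTOR reached that mean through KO alone, with 4, 9 and 9 reads in control, 6, 15 and 5 with PT2385 and 66, 96 and 50 in KO. TAF2, MRPL13 and DSCC1 in the same window had 0.03, 0.14 and −0.38.

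CCN4, which was at or under the floor, lies 5.5 kb from NDRG1, a gene known to respond to hypoxia. NDRG1 was counted 8822, 7226 and 7138 times in control, 741, 737 and 739 times with PT2385, and 638, 751 and 604 times in KO. The control libraries lay far above the others. The 3 further neighbours of CCN4 had log2 differences in KO against control of 0.89 (ST3GAL1), 0.11 (PHF20L1) and −0.36 (DNAAF11), beside −3.74 for NDRG1, so both signs occurred.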
